A study of Mus musculus with 10 samples.

Results

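Col4a1, Col4a2, Col15a1, Col18a1, Lama4, Lamb1, Lamc1, Nid1, Nid2 and Hspg2 encode 10 components of the basement membrane. They were followed in the distal colorectum of mice that carried or lacked Pdgfc, with and without local irradiation. The members were all probe sets whose gene symbol in the platform annotation was 1 of these 10. That rule reads names only, although the 10 genes were picked with earlier results of these data known. They make up 10 of the 18193 genes with a probe set of their own and 20 of the 45101 probe sets on the array, and 7 of the 10 had more than 1 probe set.

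Each of the 10 arrays held total RNA of a C57BL/6J mouse, and arrays of 1 group are biological replicates in the labels. The groups were unirradiated Pdgfc+/+ (wild type, 2 arrays), unirradiated Pdgfc-/- (knockout, 2 arrays), irradiated Pdgfc+/+ (3 arrays) and irradiated Pdgfc-/- (3 arrays). Pdgfc encodes platelet-derived growth factor C, a secreted growth factor. Irradiated mice were anesthetized with chloral hydrate and received 25 Gy of γ-rays locally, at 2.14 Gy per minute. Colorectum from roughly 1 cm above the anus was taken 8 weeks after that, from the control groups as well. The labels give neither the age and sex of the mice nor the cells in which Pdgfc is deleted. The comparisons ask how irradiation changed the basement membrane genes in each genotype, and whether the genotype changed their level or their response.

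A basement membrane is the thin sheet of matrix under an epithelium and around each blood vessel, muscle fibre, fat cell and Schwann cell. Type IV collagen and laminin each form a network, nidogens tie the networks together, and the heparan sulfate proteoglycan perlecan fills and anchors them. In the gut, the sheet under the crypt epithelium and the sheets around capillaries use different laminin chains: the α4 chain is typical of vessels, muscle and fat, and the α5 and α3 chains of epithelium.

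Col4a1 and Col4a2 encode the α1 and α2 chains, which assemble together into the most common type IV collagen. Both lie on chromosome 8, on opposite strands, and start head to head. In RefSeq on GRCm38.p6 the Col4a2 start is at 11312805 on the plus strand and the Col4a1 start at 11312826 on the minus strand, so the first 22 bases of the genes overlap at chr8:11312805-11312826. The overlap is shown on each strand because the values of this gene pair ran together across the arrays.
Col4a2 strand: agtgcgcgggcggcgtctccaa
Col4a1 strand: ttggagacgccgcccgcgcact

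The upstream sequences of Nid1 (chromosome 13, plus strand, chr13:13437352-13437601) and Hspg2 (chromosome 4, plus strand, chr4:137468553-137468750) are shown because they belong to a member that rose after irradiation in both genotypes and to the member that passed the test in neither. Capitals mark the GC box, GGGCGG, searched on both strands.
Nid1: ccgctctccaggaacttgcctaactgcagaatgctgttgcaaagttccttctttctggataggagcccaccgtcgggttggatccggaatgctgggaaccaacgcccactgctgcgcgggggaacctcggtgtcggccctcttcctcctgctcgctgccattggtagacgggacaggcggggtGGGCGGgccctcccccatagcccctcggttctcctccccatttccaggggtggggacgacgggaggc
Hspg2: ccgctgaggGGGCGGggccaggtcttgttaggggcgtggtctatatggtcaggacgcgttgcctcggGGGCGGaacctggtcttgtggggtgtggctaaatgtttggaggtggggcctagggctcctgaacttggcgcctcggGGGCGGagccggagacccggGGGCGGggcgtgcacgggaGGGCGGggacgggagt

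The Nid1 stretch of 250 bases holds 1 GC box at 64.4% G and C, and the Hspg2 stretch of 198 bases holds 5 at 70.2%. Windows of 250 bases before the start were at hand for 7 of the 10 members. Windows of 5 genes held a GC box (Col18a1, Col4a2, Hspg2, Lamb1 and Nid1), against 32.7% of the 32851 windows of this length. The match is a description of the letters.

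Values are log2 MAS5 signals, a scale on which 1 unit is a 2-fold change. A signal cannot be set against that of another probe set, so levels are compared between arrays and not between genes. Array medians lay between 6.64 and 7.18. On the brighter Pdgfc probe set, unirradiated wild type read 7.01 and 7.50 and unirradiated knockout 6.42 and 5.62, and irradiated wild type read 8.56 to 8.75 and irradiated knockout 6.26 to 7.15. All knockout arrays were thus below the wild-type arrays of the same treatment. Nothing in the labels places the probes inside or outside the deletion. Xist was at 13.48 to 14.18 on all 3 irradiated wild-type arrays and irradiated knockout array 1, and at 6.19 to 7.27 on the other 6 arrays, where the Y-linked Kdm5d, Eif2s3y and Uty were high. Within wild type, irradiation and this sex pattern cannot be told apart. Among irradiated arrays, genotype is partly mixed with it, and so is the interaction. Colonocyte genes such as Car1 and Aqp8, which mark the labelled tissue, had high signal, and keratin genes of squamous epithelium were high on the irradiated arrays. The 3′ to 5′ difference of the Gapdh control probe sets was -0.54 to -0.35 on irradiated and -0.32 to 0.02 on unirradiated arrays. That of the Actb control probe sets overlapped, at 0.44 to 0.58 on irradiated and 0.35 to 0.66 on unirradiated arrays. The part of these in the results was not tested, except where a value is given.

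Irradiated wild-type colorectum had more signal for 9 of the 10 basement membrane genes: both type IV collagen chains, all 3 laminin chains, both nidogens and the vessel-associated collagens Col15a1 and Col18a1. Among the 8 genes that were bright enough to pass the filter on low signal without the irradiated arrays, the increases ran from 2.16-fold for Col4a2 to 3.89-fold for Lama4. Nid2 passed that filter through irradiated arrays only, so its inclusion favoured a rise. Perlecan (Hspg2) did not pass the test. The same comparison called 15.8% of the 12568 genes tested higher (limma, Benjamini-Hochberg adjusted p under 0.05), and no member was lower, against 8.34% of genes. The median difference of the members was 1.26 log2 units, beside 0.07 over all genes tested. The 3 irradiated arrays lay above both unirradiated arrays for the same 9 genes, an order that 30.8% of the genes tested showed. In tissue RNA, more RNA per cell and more cells of a type that makes it cannot be told apart.

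In knockout colorectum the differences of the same 9 genes were above 0 and smaller than in wild type, a contrast between genotypes whose own test is given with the interaction. The increase passed the test for 5 of 10, Lama4, Col18a1, Lamb1, Nid1 and Col4a2, with 14.0% of the genes tested called higher and no member lower (9.50% of genes). The differences of Col4a1, Col15a1, Lamc1 and Nid2 were 0.57, 0.72, 0.66 and 1.08 log2 units and did not pass. The median was 0.89 log2 units for the members and 0.01 over all genes. Irradiated arrays were all above unirradiated ones for 7 members, against 28.4% of genes, and 10 of 10 differences were above 0, against 50.9%.

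These counts rest on few arrays. With a filter on the mean signal, which removes Nid2, 8 of 9 members passed in wild type and 5 of 9 in knockout. Of up to 24 other settings of the processing, the knockout calls passed in 23 (Lama4), 22 (Col18a1), 21 (Col4a2), 20 (Lamb1) and 16 (Nid1). Without 1 unirradiated array, fewer members and fewer genes in all passed in its genotype. Such a fit leaves 1 array in that group, so effect sizes are given. The members' median in wild type was 1.16 and 1.46 log2 units without unirradiated wild-type array 1 and 2. In knockout it was 1.01 and 0.76 without unirradiated knockout array 1 and 2. Without irradiated knockout array 2, 8 members passed in knockout, with 28.6% of genes called. That array had the lowest value of its group for 8 of the 10 members. A fit that adjusted for the sex pattern took its effect from irradiated knockout array 1 against irradiated knockout arrays 2 and 3. No other group holds both patterns, so in wild type that fit cannot separate the sex pattern from irradiation. In it no wild-type member passed, at 16 genes called in all (0.127%), and the members' median was 1.19 with 10 of 10 above 0. Unadjusted p in that fit (limma) was under 0.05 for Lama4, Col18a1, Col4a2, Lamb1, Col15a1 and Col4a1. The share of all genes under that level was not counted, so their number is not read as a result. Among the arrays of the male pattern alone, which leave 2 irradiated and 2 unirradiated knockout arrays, 3 members passed, Lama4 at 1.53, Col18a1 at 1.33 and Col4a2 at 0.75 log2 units, with 10.8% of genes called and a median of 0.86.

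**Figure D1:**
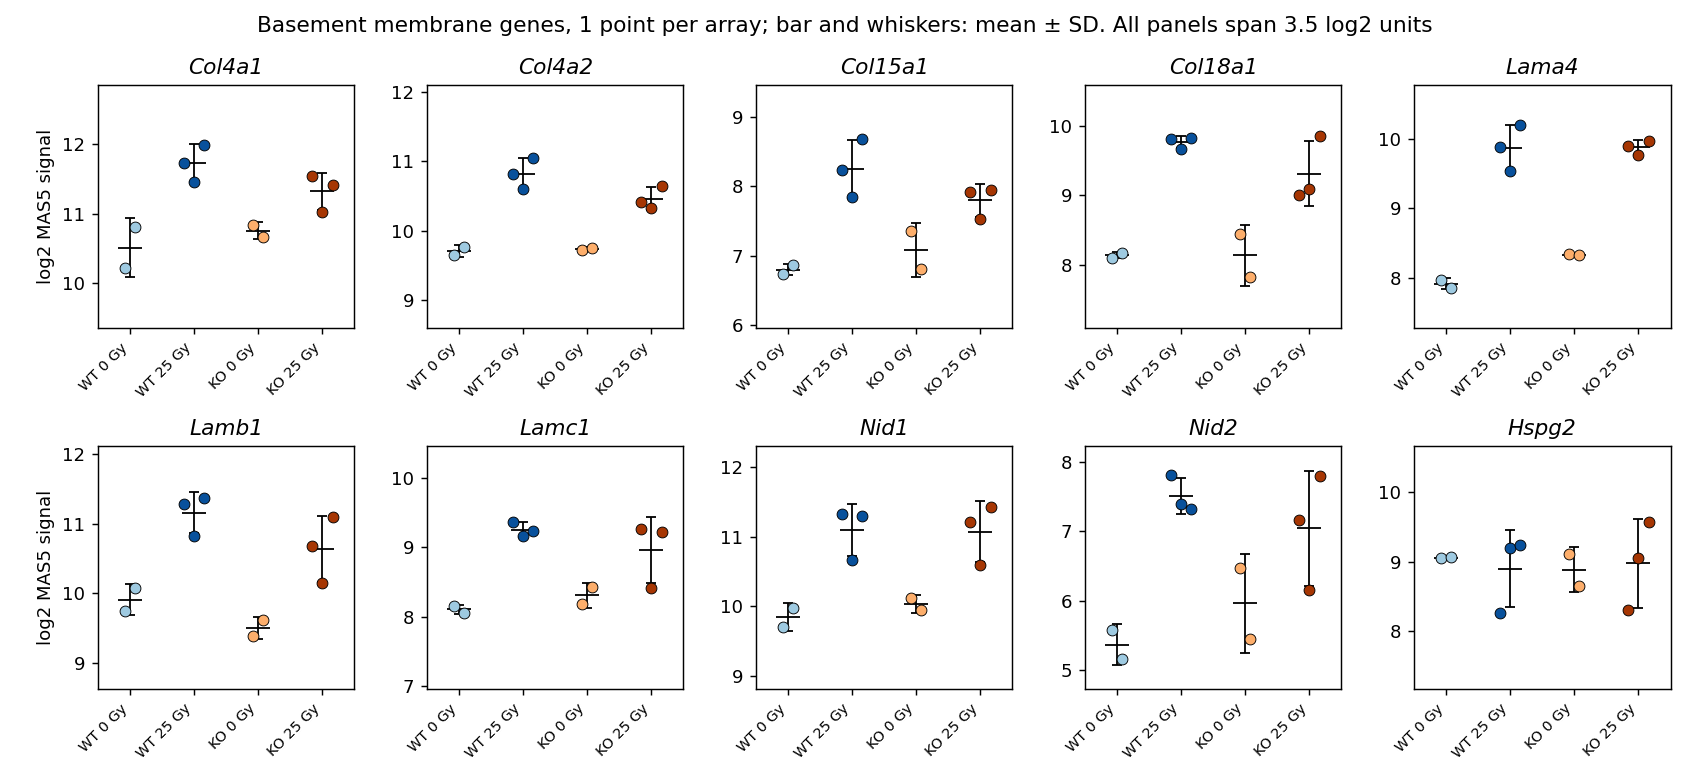
Log2 MAS5 signal of each member's brightest probe set, 1 point per array, with the group mean and SD as bar and whiskers, for wild type (WT) and knockout (KO) at 0 and 25 Gy. The irradiated wild-type points lie above the unirradiated ones in every panel but Hspg2. Irradiated knockout array 2 is the lowest irradiated knockout point in every panel but Col18a1 and Hspg2.

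Among the network collagens, Col4a1 read 10.21 and 10.81 on the unirradiated and 11.73, 11.45 and 12.00 on the irradiated wild-type arrays. In knockout it read 10.84 and 10.67 without irradiation and 11.54, 11.02 and 11.41 after it. The irradiated arrays were above the unirradiated ones in both genotypes, with the narrower gap in knockout. Col4a1 rose by 1.21 ± 0.23 (SE) log2 units in wild type, 2.32-fold (adjusted p = 0.0059, limma). Its knockout difference was 0.57 ± 0.23, with a 95% interval of 0.05 to 1.08 (adjusted p = 0.102, limma).

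Col4a2 read 9.65 and 9.77 in unirradiated and 10.81, 10.60 and 11.05 in irradiated wild type. The knockout values were 9.72 and 9.76 without and 10.42, 10.33 and 10.65 with irradiation. The 4 unirradiated arrays lay close together, and 1 irradiated knockout array (10.65) overlapped the irradiated wild-type range. The rise was 1.11 ± 0.16 log2 units in wild type (2.16-fold, adjusted p = 0.0019, limma) and 0.73 ± 0.16 in knockout (1.66-fold, adjusted p = 0.0122, limma). Across the 10 arrays the chains of the pair had a Pearson r of 0.94, a description over arrays that share their groups and their RNA.

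Of the laminin genes, Lama4 encodes the α4 chain, which joins with β1 and γ1 in vessels. It read 7.97 and 7.86 in unirradiated and 9.89, 9.55 and 10.20 in irradiated wild type, and 8.34 and 8.33 in unirradiated and 9.90, 9.76 and 9.97 in irradiated knockout. Irradiated arrays of both genotypes stood at one level, more than 1 unit above every unirradiated array. Lama4 had the smallest adjusted p of the 10 members in both genotypes. It rose by 1.96 ± 0.19 log2 units in wild type (3.89-fold, 95% interval 1.53 to 2.39, adjusted p = 3.6e-04, limma). In knockout it rose by 1.54 ± 0.19 (2.91-fold, 95% interval 1.11 to 1.97, adjusted p = 7.9e-04, limma).

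Lamb1, the β1 chain shared by many laminins, read 9.75 and 10.07 in unirradiated and 11.29, 10.82 and 11.37 in irradiated wild type. Its knockout values were 9.39 and 9.62 without and 10.68, 10.14 and 11.10 with irradiation. The unirradiated knockout arrays were the lowest of all 10, and irradiated knockout array 2 (10.14) was close to unirradiated wild-type array 2 (10.07). Lamb1 rose by 1.25 ± 0.27 log2 units in wild type (2.38-fold, adjusted p = 0.0107, limma) and by 1.14 ± 0.27 in knockout (2.20-fold, adjusted p = 0.0156, limma).

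Lamc1, the γ1 chain found in most laminins, read 8.15 and 8.06 in unirradiated and 9.37, 9.16 and 9.24 in irradiated wild type, and 8.19 and 8.43 in unirradiated and 9.26, 8.42 and 9.22 in irradiated knockout. Irradiated knockout array 2 was inside the unirradiated range and the other irradiated arrays were above it. The rise in wild type was 1.15 ± 0.25 log2 units (2.22-fold, adjusted p = 0.0109, limma). The knockout difference was 0.66 ± 0.25, with a 95% interval of 0.10 to 1.22 (adjusted p = 0.084, limma). Without irradiated knockout array 2 that difference was 0.93 and passed.

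The nidogens are the glycoproteins that link laminin to type IV collagen. Nid1 read 9.70 and 9.98 in unirradiated and 11.32, 10.67 and 11.30 in irradiated wild type, and 10.12 and 9.94 in unirradiated and 11.21, 10.59 and 11.42 in irradiated knockout. The values of the genotypes ran over each other in both treatments, and every irradiated array was above every unirradiated one. Nid1 rose by 1.26 ± 0.27 log2 units in wild type (2.40-fold, adjusted p = 0.0101, limma) and by 1.04 ± 0.27 in knockout (2.06-fold, adjusted p = 0.0216, limma).

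Nid2 was a dim member, above the array median on 5 of the 10 arrays, all of them irradiated. It read 5.58 and 5.16 in unirradiated and 7.80, 7.39 and 7.32 in irradiated wild type, and 6.46 and 5.45 in unirradiated and 7.17, 6.16 and 7.80 in irradiated knockout. The wild-type groups were apart, and the knockout groups overlapped. The wild-type difference was 2.14 ± 0.52 log2 units (4.39-fold, adjusted p = 0.0171, limma), taken over unirradiated signals below the array medians and with the largest standard error of the members. The knockout difference was 1.08 ± 0.52, with a 95% interval of -0.08 to 2.25 (adjusted p = 0.160, limma).

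Hspg2, the perlecan core protein, stood apart. It read 9.05 and 9.07 in unirradiated and 8.27, 9.20 and 9.24 in irradiated wild type, and 9.12 and 8.66 in unirradiated and 8.30, 9.05 and 9.57 in irradiated knockout. In each irradiated group array 1 was the lowest, and the groups overlapped. The difference was -0.16 ± 0.39 log2 units in wild type (95% interval -1.02 to 0.71, adjusted p = 0.80, limma) and 0.09 ± 0.39 in knockout (95% interval -0.78 to 0.95, adjusted p = 0.89, limma). In the main wild-type fit the upper bound lies below the estimate of each of the other 9 members. Without irradiated wild-type array 1 the Hspg2 difference was 0.16 log2 units. With the sex pattern as a covariate it was 0.86, above Lamc1 at 0.71 and near Col4a1 at 0.89. The other Hspg2 probe set read 7.38 to 8.33 over the 10 arrays and did not pass in either genotype.

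Col15a1 and Col18a1 encode the multiplexins, collagens with heparan or chondroitin sulfate chains at the outer face of basement membranes. The C-terminal fragment of collagen XVIII is endostatin. Col15a1 read 6.74 and 6.86 in unirradiated and 8.23, 7.85 and 8.67 in irradiated wild type, and 7.35 and 6.81 in unirradiated and 7.91, 7.52 and 7.95 in irradiated knockout. Groups were apart in both genotypes, with the nearest knockout arrays at 7.35 and 7.52. The wild-type rise was 1.45 ± 0.30 log2 units (2.73-fold, adjusted p = 0.0088, limma), and the knockout difference of 0.72 ± 0.30 had a 95% interval of 0.04 to 1.39 (adjusted p = 0.112, limma). After quantile normalization the wild-type difference of Col15a1 was 0.89 log2 units and did not pass.

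Col18a1 read 8.10 and 8.17 in unirradiated and 9.81, 9.66 and 9.83 in irradiated wild type, and 8.45 and 7.82 in unirradiated and 9.0, 9.08 and 9.85 in irradiated knockout. Irradiated knockout array 3 reached the irradiated wild-type level and the other irradiated knockout arrays lay between the groups. Col18a1 rose by 1.63 ± 0.27 log2 units in wild type (3.10-fold, adjusted p = 0.0032, limma) and by 1.18 ± 0.27 in knockout (2.26-fold, adjusted p = 0.0137, limma).

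**Figure D2:**
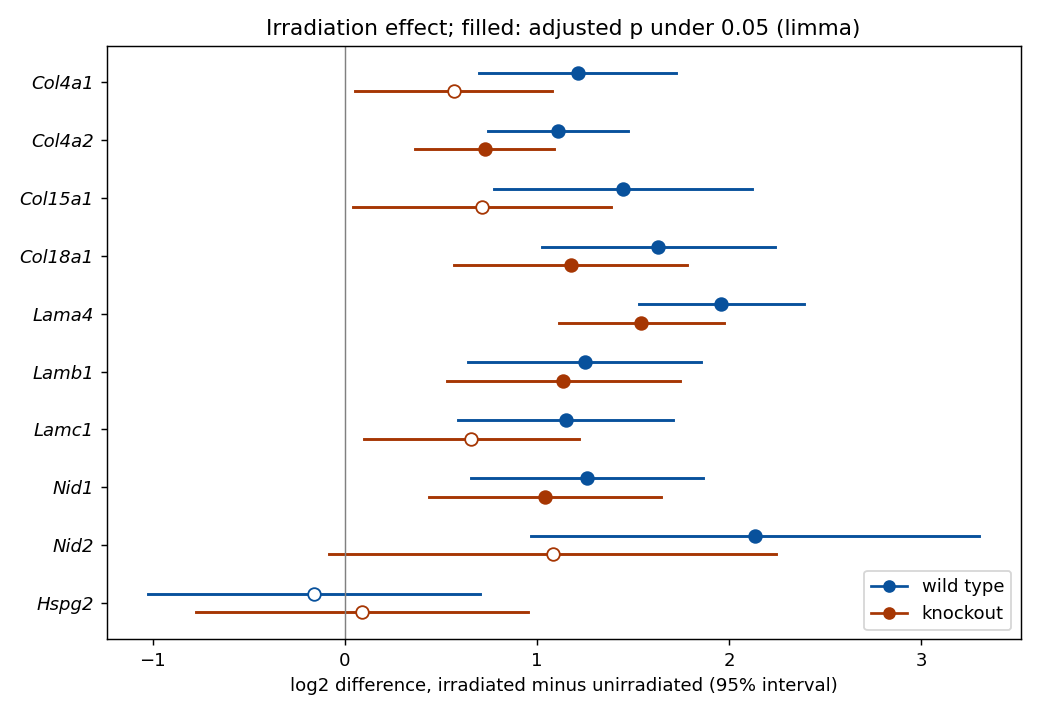
Log2 difference of irradiated minus unirradiated arrays for each member on the x axis, with 95% intervals from limma, in wild type and knockout. Filled points passed an adjusted p of 0.05: 9 members in wild type and 5 in knockout, with Hspg2 at 0 within its interval in both.

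Other probe sets of the members mostly followed the brightest. Of the 20 probe sets, 18 exceeded the median signal of 2 or more arrays, and 1 each of Lamb1 and Nid1 exceeded it on none. Tested probe by probe, 16 of 18 were higher after irradiation in wild type, against 12.3% of the 25883 probe sets tested, and the other 2 were both of Hspg2. In knockout 9 of 18 were higher, against 10.9%. The only Nid2 probe set and the second ones of Lama4 and Lamc1 passed the filter through irradiated arrays alone, which favours a rise. Of the other 15, 13 were higher in wild type and 8 in knockout. All 3 Lamb1 probe sets tested, both of Lama4 and both of Col18a1 passed in both genotypes. The second probe sets of Lamc1 and Nid1 were at 0.81 ± 0.93 and 0.96 ± 0.78 log2 units in knockout and did not pass, where the brightest of Nid1 did.

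The members also ran together array by array. Averaged over the 10 members after centring each on its own mean, unirradiated wild type was at -0.77 and -0.68, unirradiated knockout at -0.46 and -0.71, irradiated wild type at 0.59, 0.38 and 0.77, and irradiated knockout at 0.28, -0.05 and 0.64. Irradiated knockout array 2 thus sat between the irradiated and the unirradiated arrays. Each of 9 members had a Pearson r of 0.92 to 0.97 with the mean of the other 9 members over the 10 arrays, and Hspg2 had -0.03. These r values hold the irradiation difference itself. With group means removed, they were 0.52 (Lamc1) to 0.87 (Nid1) for the 9 and 0.12 for Hspg2.

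Without irradiation, no basement membrane gene differed between the genotypes by the adjusted test, where 1.23% of the genes tested were called, and none at an unadjusted p under 0.05 either (16.6% of genes). The median of the members was 0.20 log2 units, knockout minus wild type, and 8 of 10 were above 0, as were 56.9% of all genes. After quantile normalization 6 of 10 were above 0. Without unirradiated wild-type array 1 the median was 0.010 and 5 of 10 were above 0, and without unirradiated knockout array 1 or 2 it was 0.065 and 0.30. The widest differences were 0.59 ± 0.57 for Nid2, 0.42 ± 0.21 for Lama4 (95% interval -0.05 to 0.89) and -0.41 ± 0.30 for Lamb1 (95% interval -1.07 to 0.26). Both knockout arrays were above both wild-type arrays for Lama4 and Lamc1 (28.9% of genes) and below them for Lamb1 (18.9%). The intervals are wide at 2 arrays a group: that of Nid2 ran from -0.68 to 1.87. The second Nid1 probe set was at 2.25 ± 0.85 (95% interval 0.36 to 4.14, unadjusted p = 0.024, adjusted p = 0.23, limma), with unirradiated wild-type array 1 at 3.75 and the other 3 unirradiated arrays at 7.37 to 7.98.

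After irradiation, 8 of the 10 members were lower in knockout than in wild type, and no difference passed the adjusted test. None of the 12568 genes was called in this comparison (0.00%). The members' median was -0.38 log2 units, beside 0.00 over all genes, of which 49.3% were below 0. Without irradiated knockout array 2 it was -0.14, with 3 members above 0, and with array weights it was -0.18. Col4a2 was the 1 member with an unadjusted p under 0.05, at -0.36 ± 0.15 log2 units (95% interval -0.68 to -0.03, unadjusted p = 0.0347, adjusted p = 1.00, limma), against 3.98% of genes. Lamb1 was at -0.52 ± 0.24 (95% interval -1.06 to 0.02), Col18a1 and Col15a1 both at -0.45, and Col4a1 at -0.40 ± 0.21 (95% interval -0.86 to 0.06). Lama4, by contrast, was at 0.00 ± 0.17, with a 95% interval of -0.38 to 0.39, and Nid1 at -0.03 ± 0.24. On the brightest probe sets the irradiated genotypes overlapped for all 10 members, where 4.04% of genes had every knockout array below every wild-type array. Genotype was partly mixed with the sex pattern on these arrays. With that pattern as a covariate, the genotype difference rested on irradiated knockout array 1 alone, set against the mean of irradiated wild type. In that fit the members' median was -0.34, with 3 members above 0. Col4a1 was then at -0.185 and Lamc1 at 0.004, while Col18a1 was at -0.77 and Hspg2 at -0.60. The part of the sex pattern was not tested beyond this fit.

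Of the 18 member probe sets tested, 2 had every irradiated knockout array below every irradiated wild-type array, against 4.82% of all probe sets tested. They were the second ones of Col4a1 and Lamc1, while the brightest of each overlapped. The second Col4a1 probe set read 9.75, 10.34 and 11.10 in irradiated wild type and 9.31, 9.70 and 9.46 in irradiated knockout. These were above 8.73 and 8.89 in unirradiated wild type and 8.61 and 8.40 in unirradiated knockout. Each irradiated knockout array was below each irradiated wild-type array, the nearest at 9.70 and 9.75. The difference of -0.90 ± 0.28 log2 units had an unadjusted p of 0.0098 and an adjusted p of 1.00 (limma over all probe sets). The second Lamc1 probe set was above the array median on 2 arrays, both irradiated wild type, and so was tested only through the higher group. Its difference was -2.25 ± 0.83. Of the 15 member probe sets that did not pass the filter through irradiated arrays alone, 2 had an unadjusted p under 0.05 (the second of Col4a1 and that of Col4a2), against 3.94% of the probe sets tested.

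**Figure D3:**
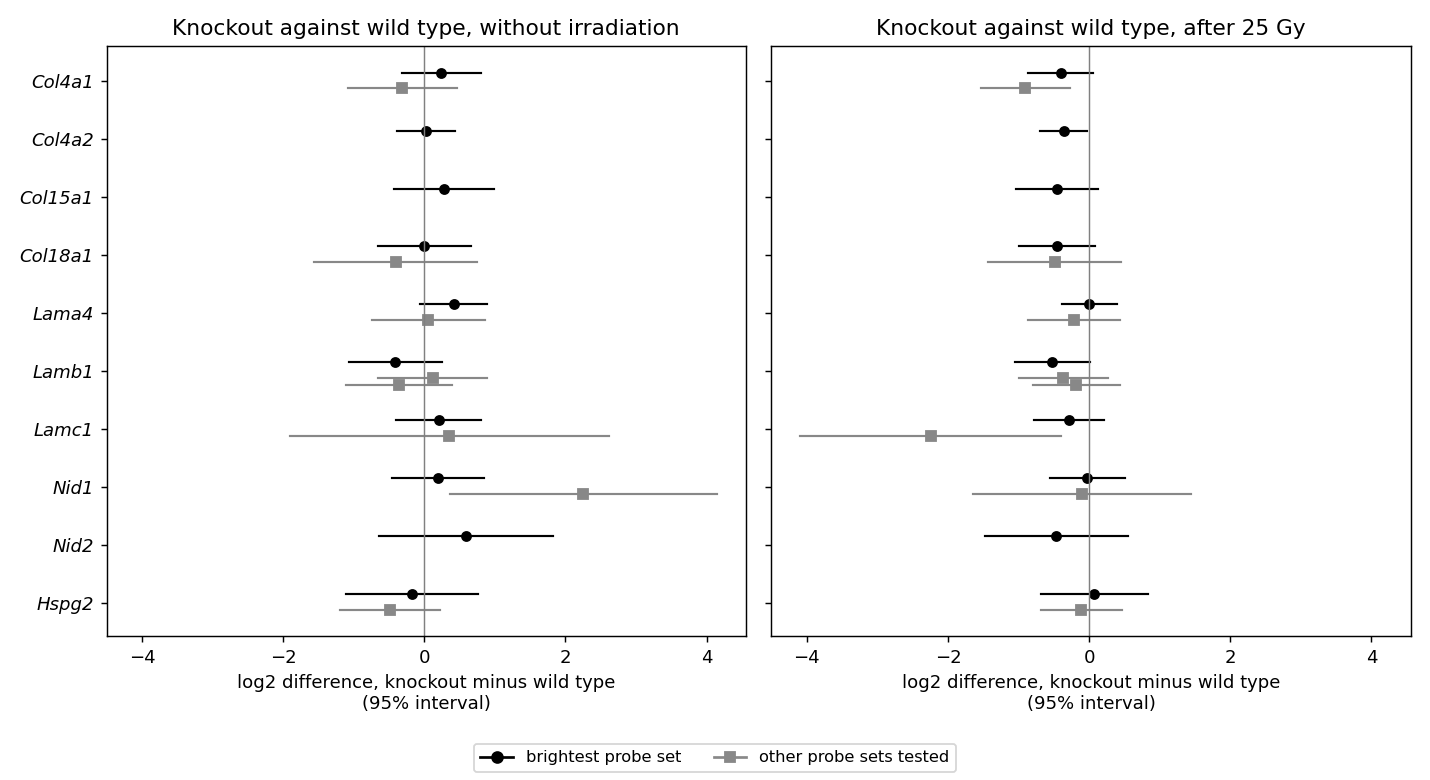
Log2 difference of knockout minus wild type on the x axis, with 95% intervals from limma, without irradiation (left) and after 25 Gy (right), for the brightest (black) and the other tested probe sets (grey) of each member. Most intervals span 0. Without irradiation that of the second Nid1 probe set (0.36 to 4.14) does not, and after irradiation those of Col4a2 (-0.68 to -0.03), the second Col4a1 and the second Lamc1 probe set do not.

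Whether irradiation raised the members by a different amount in knockout was tested as an interaction. No member passed, with 0.207% of genes called, and none had an unadjusted p under 0.05 (10.4% of genes). The signed difference, knockout response minus wild-type response, was below 0 for 9 of 10 members and 54.9% of all genes, with a median of -0.44 log2 units (-0.05 over all genes). The values were -0.65 ± 0.32 for Col4a1 (95% interval -1.37 to 0.08), -0.73 ± 0.42 for Col15a1, -1.05 ± 0.74 for Nid2 and -0.11 ± 0.38 for Lamb1. With the sex pattern as a covariate the median was -0.43, and Col4a1 was at -0.43. In that fit too, irradiated knockout array 1 alone was set against irradiated wild type. So Col4a1, Col15a1, Lamc1 and Nid2, which passed in wild type and not in knockout, were not shown to respond differently in the genotypes. The irradiation comparisons do not share control arrays, but the interaction and both genotype comparisons use the same arrays again.

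Other genes of the basement membrane moved in several directions after irradiation, while the genotype comparisons and the interaction called no gene of these 7 lists. Their counts stand beside 15.8% of all genes higher and 8.34% lower in wild type, and 14.0% and 9.50% in knockout. Genes of the lists, like all genes tested, could pass the filter through irradiated arrays only, which favours a rise. How many did was not counted. The list of other basement membrane collagens had 6 genes, 4 of them tested, of which 2 rose in each genotype. They were Col17a1, the hemidesmosome collagen of squamous epithelium, with means of 2.34 and 2.33 without irradiation, far below the array medians, and 9.65 and 9.06 after it in wild type and knockout, and Col7a1, the anchoring fibril collagen, which rose by 1.37 and 1.07. Of 5 other laminin chains tested, 2 rose and 1 fell in wild type, and 1 rose and 1 fell in knockout. Lama2, the α2 chain of muscle and nerve, rose by 1.48 and 1.39 log2 units in wild type and knockout. Lama3, an epithelial α chain, rose by 0.95 in wild type, and its knockout difference of 0.26 did not pass. Lamb3, a β chain that joins it, fell by 0.67 in wild type and by 0.97 in knockout.

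Other basement membrane glycoproteins and proteoglycans counted 8 higher and 1 lower of 14 tested in wild type, and 6 higher and 1 lower in knockout. Sparc, which binds type IV collagen, rose from 10.71 to 12.71 in wild type and by 1.59 log2 units in knockout, and Fbln2, a fibulin, rose by 1.69 and 1.42. Npnt, nephronectin, an integrin ligand, rose by 4.01 and 2.33 in wild type and knockout, and Fbln1 by 2.29 and 1.94. Genes of crosslinking and collagen folding counted 6 higher and none lower of 11 in wild type, and 5 higher and 1 lower in knockout. Loxl1, a lysyl oxidase, rose by 1.61 and 1.30 log2 units, Serpinh1, the collagen chaperone of the endoplasmic reticulum, by 1.80 and 1.32, and Lox by 4.42 and 2.20. Lox and Npnt read below the array medians in unirradiated wild type, at means of 5.77 and 5.05. Mia3, which helps load collagen for export, fell by 0.73 in knockout, and its wild-type difference of -0.21 did not pass.

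Basement membrane receptors were called in both directions, with 4 higher and 3 lower of 13 in wild type and 1 higher and 2 lower in knockout. Bcam, a receptor of the laminin α5 chain, rose by 1.63 log2 units in wild type (0.71 in knockout, which did not pass), and the syndecan Sdc2 by 1.02 and 0.71. The integrin Itgb4 of hemidesmosomes fell by 0.74 and 1.19, and dystroglycan (Dag1) by 0.46 in knockout, with -0.33 in wild type, which did not pass. Degrading enzymes counted 7 higher and none lower of 10 in wild type, and 6 and none in knockout. Mmp2, a gelatinase that cuts type IV collagen, rose by 2.10 and 1.77 log2 units, and the stromelysin Mmp3 by 4.44 and 3.21. The protease gene Ctsl rose by 0.94 in wild type, and Adamts1 by 1.41 in knockout. Their differences in the other genotype, 0.39 for Ctsl and 0.45 for Adamts1, did not pass. Fibrillar and interstitial matrix genes rose in 11 of 11 in wild type and 10 of 11 in knockout, with Dcn at 2.40 and 2.30 and Lum at 3.73 and 3.20. Their medians, 1.50 and 1.87 log2 units, stand beside 1.26 and 0.89 for the 10 members. After adjustment for the sex pattern, 5 of the 11 fibrillar genes and no gene of the other 6 lists passed in wild type.

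Several of these counts turned on single arrays. Fewer genes in all were also called in a genotype without 1 of its unirradiated arrays. The ranges here, and those of the markers below, are thus not read as particular to these lists. Leaving out each array in turn, the count of higher genes in wild type ran from 5 to 9 for the glycoproteins, 4 to 6 for crosslinking and folding, 4 to 9 for the enzymes and 8 to 11 for the fibrillar genes. In knockout it ran from 3 to 7, 1 to 5, 3 to 6 and 8 to 10. The knockout lows came without unirradiated knockout array 1 or 2, except that of the fibrillar genes, which came without irradiated knockout array 3, and the low of the enzymes in wild type came without unirradiated wild-type array 1. Receptors had 1 higher and 2 lower in wild type without that array, 3 and 0 without unirradiated wild-type array 2, 2 and 0 without irradiated wild-type array 2, and 2 and 2 without irradiated wild-type array 3. Other collagens and other laminin chains lost 1 or 2 of their few calls without single arrays, but Col17a1 and Lama2 kept theirs.

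Markers of vessels and of several other tissues changed on the same arrays as the members. Markers could also pass the filter through irradiated arrays only, which favours a rise, and how many did was not counted. Endothelial markers rose in 13 of 16 tested in wild type and 11 in knockout, with medians of 1.57 and 1.02 log2 units. Pecam1, the platelet endothelial adhesion molecule, rose by 1.98 in wild type and 1.00 in knockout, and Emcn, endomucin, by 2.29 and 1.71. Their summed level was 11.54 to 11.68 in unirradiated and 12.97 to 13.23 in irradiated wild type, and 11.76 to 11.90 in unirradiated and 12.69 to 13.15 in irradiated knockout. Its lowest irradiated value was that of irradiated knockout array 2, which was also the lowest irradiated array for the members' mean. Leaving out each array in turn, 12 to 14 endothelial markers passed in wild type and 4 to 13 in knockout, with 4 without unirradiated knockout array 2, and after adjustment for the sex pattern none passed in wild type. Of the pericyte and smooth muscle markers 2 of 12 rose in wild type and 1 in knockout, shares near or below those of all genes called higher (15.8% and 14.0%), with medians of 0.06 and 0.12 and summed levels of 16.17 to 16.71 over all arrays, and none passed after quantile normalization. Notch3, a receptor of mural cells, rose by 0.98 and 0.73.

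Fibroblast markers rose in 9 of 9 in both genotypes, and their summed level went from 13.18 to 13.45 on unirradiated arrays to 15.29 to 15.78 on irradiated ones. The list shares Dcn, Lum, Col1a1 and Col1a2 with the fibrillar list. Adipocyte markers rose in 5 of 7 in each genotype, and in 5 to 6 and 2 to 7 in wild type and knockout with each array left out in turn (2 without unirradiated knockout array 2), with summed levels of 10.58 to 10.64 and 15.16 to 15.90 in unirradiated and irradiated wild type, and 12.62 to 13.03 and 14.35 to 15.66 in knockout. Of these, Car3 alone was called between the unirradiated genotypes, at 6.96 in wild type and 12.27 in knockout. The interaction called 1 adipocyte marker lower. Striated muscle markers rose in 6 of 10 in wild type and 2 in knockout, and in 2 to 8 and 0 to 8 with each array left out in turn. Their summed level ran from 9.98 to 15.70 within irradiated wild type, against 9.42 to 9.79 without irradiation, and from 12.45 to 12.95 and 14.76 to 16.10 in unirradiated and irradiated knockout.

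Squamous epithelium markers rose in 6 of 8 in wild type and 8 of 8 in knockout, with summed levels of 7.61 to 8.84 on unirradiated and 14.41 to 16.12 on irradiated arrays. Colonocyte markers fell in 7 of 9 in wild type and 6 of 9 in knockout. Their summed level was 17.19 to 17.58 on unirradiated arrays and 16.06 to 16.20 on irradiated ones, other than irradiated knockout array 2 at 17.00. Leukocyte markers rose in 6 of 6 in both, with summed levels of 10.08 to 11.65 and 13.39 to 14.98 on unirradiated and irradiated arrays. No glial or Schwann cell marker of 3 tested passed in either genotype. Single marker values went as low as 0.29 for striated muscle, 0.32 for squamous epithelium, 0.41 for endothelium and 0.48 for adipocytes, far below the array medians. After that adjustment 3 fibroblast, 1 adipocyte and 1 squamous marker passed in wild type, and no colonocyte, muscle or leukocyte marker. Without unirradiated knockout array 1 or 2, 3 and 2 colonocyte markers fell in knockout. The part of these cell types in the members' increase was not tested.

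The genes whose values over the 10 arrays were most like the mean of the 10 members, among 12558 others, were Cd93, Vwf, Igf1, Fli1 and St8sia6, with Pearson r from 0.98 to 0.99. With group means removed, the r values of Cd93, Vwf, Igf1, Fli1 and St8sia6 were 0.95, 0.90, 0.90, 0.91 and 0.87. Vwf was also among the endothelial markers. The arrays share groups and tissue make-up, and likeness over 10 arrays is a description.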

How the data were processed

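Total RNA of 10 colorectum samples was hybridised to Affymetrix arrays. The authors deposited log2 signals for 45101 probe sets an array, made with MAS5 in the R affy package, per the labels. On the linear scale, the mean of each array after trimming 2% at each end was 500.0, so arrays share a scaling target. No depth applies to arrays, and their number limits the precision.

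Probe sets were named from the platform annotation: 34945 had 1 gene, 932 several and 9160 none, and 64 were controls. Symbols of 34741 were matched to RefSeq on GRCm38.p6. For each gene the probe set with the highest mean was used, and 12568 genes that exceeded the median signal of 2 or more arrays were tested. limma 3.58.1 (R 4.3.3) was fitted with 1 mean per group, 6 residual degrees of freedom and an intensity trend, and p-values were adjusted by Benjamini-Hochberg. They measure the spread between these samples. A member was called at an adjusted p under 0.05. The 18 member probe sets that passed the same filter were also tested one by one among 25883. The code was tested on simulated data.

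All 10 members are named, with up to 3 genes of smallest p past the threshold from each of 7 pathway and 9 marker lists in each comparison, and the 5 genes most like the members' mean; Car3 in the genotype comparison was also within this rule. Members and lists were chosen with earlier results of these data known. A summed level is log2 of the summed linear signals of a list. Promoter windows are RefSeq's on GRCm38.p6, and windows of Lama4, Lamc1 and Nid2 were not used here. In all, 15 alternatives were run, of which the one that leaves out each array in turn gives 10 settings, so that a comparison has up to 24 settings beside its own.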

Additional observations from a re-analysis of the deposited data

How the results depend on the processing

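Each comparison was recomputed under up to 24 other settings. Quantile normalization moved the median of all genes from 0.07 to -0.11 log2 units for irradiation in wild type and from 0.01 to -0.12 in knockout. Members called in wild type (9) were 0 with the sex pattern as a covariate (0.127% of genes called) and 1 (Lama4) at a minimum change of 2-fold (2.45%). They stayed at 9 without any 1 irradiated array (14.4% to 27.6%). They fell without 1 unirradiated wild-type array, which left 1 in its group. Members called in knockout (5) were 0 at a minimum of 2-fold (3.07% of genes called), 3 with male-pattern arrays only (10.8%) and 8 with array weights (33.6%). Without 1 irradiated array they were 4 to 8 (13.5% to 28.6%). They fell without 1 unirradiated knockout array, which left 1 in its group. In every setting that gave a value, 9 members were above 0 in both irradiation comparisons, the exception being Hspg2. The genotype comparisons and the interaction called 0 members in every setting. The replicate numbers showed no clear pairing of the samples. Deviations from the group means correlated at -0.20 to 0.16 over 13 same-numbered pairs, with 3 over 0.1. In a group of 2 arrays these deviations mirror each other, so the check cannot exclude a pairing. With the replicate number as a block, 9 members were called in wild type and 5 in knockout, and 0 in the other comparisons. Differences not called changed sign 40 times among the settings, and no called one did. Nid2 was not tested with a filter on the mean. Male-pattern arrays alone gave no value for wild-type irradiation, the irradiated genotypes or the interaction. Where a count moved, the cause was not tested. Arrays of 2 to 3 a group limit the precision.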
